A study of Homo sapiens with 8 samples.

Results

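Annexins and S100 proteins are calcium-responsive proteins that meet at membranes. This account covers 10 of their genes (ANXA1, ANXA2, ANXA4, ANXA5, ANXA6, S100A4, S100A6, S100A10, S100A11 and S100A16) in Hs578T breast cancer cells grown under high and low glucose. The genes were chosen by symbol, and all 10 were found among the 21077 rows of the deposited table. Hs578T is an established estrogen receptor–negative breast cancer line with mesenchymal features. High glucose means 25 mM, which models hyperglycemia, and low glucose means 5 mM, each for 48 hours and with 4 RNA-Seq libraries. By the methods of the study, both groups were conditioned in low glucose and then cultured without serum. The labels name no osmolarity control for these libraries, so glucose and osmolarity cannot be told apart. Whether the replicates were separate cultures is not in the labels, so each p value rests on a spread between libraries that may be technical. The question was how hyperglycemia changes the expression of these genes.

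Annexins bind acidic phospholipids when calcium rises and take part in membrane repair, vesicle traffic and the cortical cytoskeleton. S100 proteins are small EF-hand proteins that form dimers and bind target proteins, among them the N-terminal tails of certain annexins. Annexin A2 and S100A10 (p11) form a complex that anchors plasminogen and its activators at the cell surface, and annexin A1 pairs with S100A11. Values are the deposited normalized signal, taken as CPM (counts scaled to a common library size) with TMM factors, a library scaling that assumes most genes do not change. Estimated depth was 10244900 to 11956677 counts per library in high glucose and 10323776 to 11126112 in low glucose. The columns summed to 1017015 to 1036274 in high glucose and 1205567 to 1229021 in low glucose. All 8 mesenchymal markers were present and summed to 35376 to 36798 CPM in high and 57902 to 61948 CPM in low glucose, with vimentin (VIM) at 3733 ± 139.8 CPM in high glucose and 8420.3 ± 132 CPM in low glucose (SD, n = 4 each). The luminal list summed to 111 to 129 CPM in high and 277 to 294 CPM in low glucose, with EPCAM at 0 in all libraries and the estrogen receptor gene ESR1 at no more than 0.270 CPM. Of the keratinocyte markers, KRT14 was present, and the list summed to 70.1 to 88.0 CPM in high glucose and 377 to 414 CPM in low glucose, with IVL at 0 and KRT5 at no more than 0.118 CPM. The leukocyte list summed to 1.30 to 1.91 CPM in high glucose and 0.217 to 0.885 CPM in low glucose, with LYZ at 0. The endothelial list summed to 6.21 to 7.80 CPM in high and 1.95 to 2.77 CPM in low glucose. Most of it was PECAM1 (mean 5.80 CPM in high and 2.05 CPM in low glucose), and CDH5 was at 0. The part of these markers in the results was not tested.

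The promoters of 4 of the genes are shown because the results turn on them: ANXA1 had the largest fall of the 10 genes and S100A4 the largest rise, and ANXA2 and S100A10 encode the partners of 1 complex. Each is the 250 bases before the RefSeq transcription start in GRCh38.p14, written 5′ to 3′ on the strand of the gene: chr9:73151615-73151864 on the plus strand for ANXA1, and, on the minus strand, chr1:153545807-153546056 for S100A4, chr15:60397987-60398236 for ANXA2 and chr1:151993860-151994109 for S100A10. Capitals mark matches to the motifs searched on both strands.
ANXA1: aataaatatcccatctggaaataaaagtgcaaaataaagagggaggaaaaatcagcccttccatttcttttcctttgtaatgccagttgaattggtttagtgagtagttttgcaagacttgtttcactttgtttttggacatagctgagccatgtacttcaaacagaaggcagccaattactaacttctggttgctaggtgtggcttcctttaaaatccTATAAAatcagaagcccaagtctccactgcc
S100A4: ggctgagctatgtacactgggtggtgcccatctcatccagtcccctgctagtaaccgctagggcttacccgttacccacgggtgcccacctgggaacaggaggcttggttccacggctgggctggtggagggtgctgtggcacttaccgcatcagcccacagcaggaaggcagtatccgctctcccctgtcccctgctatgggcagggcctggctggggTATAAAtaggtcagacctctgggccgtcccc
ANXA2: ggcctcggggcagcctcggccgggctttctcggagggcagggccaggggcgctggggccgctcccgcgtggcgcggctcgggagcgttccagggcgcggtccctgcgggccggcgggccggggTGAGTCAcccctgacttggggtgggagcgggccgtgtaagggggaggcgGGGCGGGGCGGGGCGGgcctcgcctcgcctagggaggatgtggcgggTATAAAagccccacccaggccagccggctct
S100A10: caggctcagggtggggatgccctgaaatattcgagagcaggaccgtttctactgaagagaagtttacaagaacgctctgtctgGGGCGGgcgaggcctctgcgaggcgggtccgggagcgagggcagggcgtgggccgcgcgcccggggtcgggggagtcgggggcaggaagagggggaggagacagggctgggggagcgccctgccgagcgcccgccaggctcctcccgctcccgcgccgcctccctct

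The capitals in ANXA1, S100A4 and ANXA2 include TATAAA beginning 31 bases before the start, and these were the only TATA box matches among the 13 windows of the 10 genes. The same letters were found in 10.7% of 35116 promoter windows of that length. ANXA2 also held an AP-1 site (TGANTCA, 6.57% of all windows) and 3 GC boxes (GGGCGG, 42.6% of all windows) that overlap by 1 base. S100A10 held 1 GC box. In the other windows, an E-box (CACGTG, 6.34% of all) was found for ANXA4 and ANXA6 and the TEAD letters GGAATG (11.9%) for S100A16. The cAMP response element (TGACGTCA, 1.65%), the C/EBP-ATF response element (TGATGNAA, 3.14%) and the CArG box (1.16%) were in none of the 13 windows. The GC content of the windows shown was 38.4% for ANXA1, 62.8% for S100A4, 78% for ANXA2 and 71.2% for S100A10, against a median of 58% over all windows. The windows of ANXA4, which also fell, had 77.2% and 71.6%, and those of S100A16, which rose, 57.2% and 58%. A link of GC content to the changes was not tested.

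ANXA1 and ANXA4 were lower in high glucose under each scaling of the libraries. ANXA1 encodes annexin A1 (lipocortin 1), the glucocorticoid-induced mediator that dampens inflammation through formyl peptide receptors, and lies on chromosome 9 from 73151865 to 73170393 of hg38. It had 409, 394, 393 and 404 CPM in the 4 high-glucose libraries, against 1316, 1278, 1318 and 1333 CPM in the 4 low-glucose libraries. The groups were far apart, and libraries of a group differed little (coefficient of variation 1.95% in high and 1.79% in low glucose). On the scale of log2(CPM + 1), high glucose minus low glucose, the log2 fold change was -1.71 ± 0.031 (SE, adjusted p = 1.66e-15). A change of at least this size in either direction was seen for 3.13% of the 15570 genes tested. ANXA4, an annexin of apical membranes and membrane repair on chromosome 2 from 69643808 to 69827112, had 88.9, 89.5, 79.6 and 80.2 CPM in high glucose, against 139, 140.2, 139 and 129 CPM in low glucose. High-glucose replicates 1 and 2 were above replicates 3 and 4, and all 4 were below the low-glucose libraries. The log2 fold change was -0.69 ± 0.050 (SE, adjusted p = 5.16e-09), and -0.44 after the libraries were scaled to equal totals. In RNA from whole cultures, fewer cells expressing a gene and less RNA per cell cannot be told apart.

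**Figure D1:**
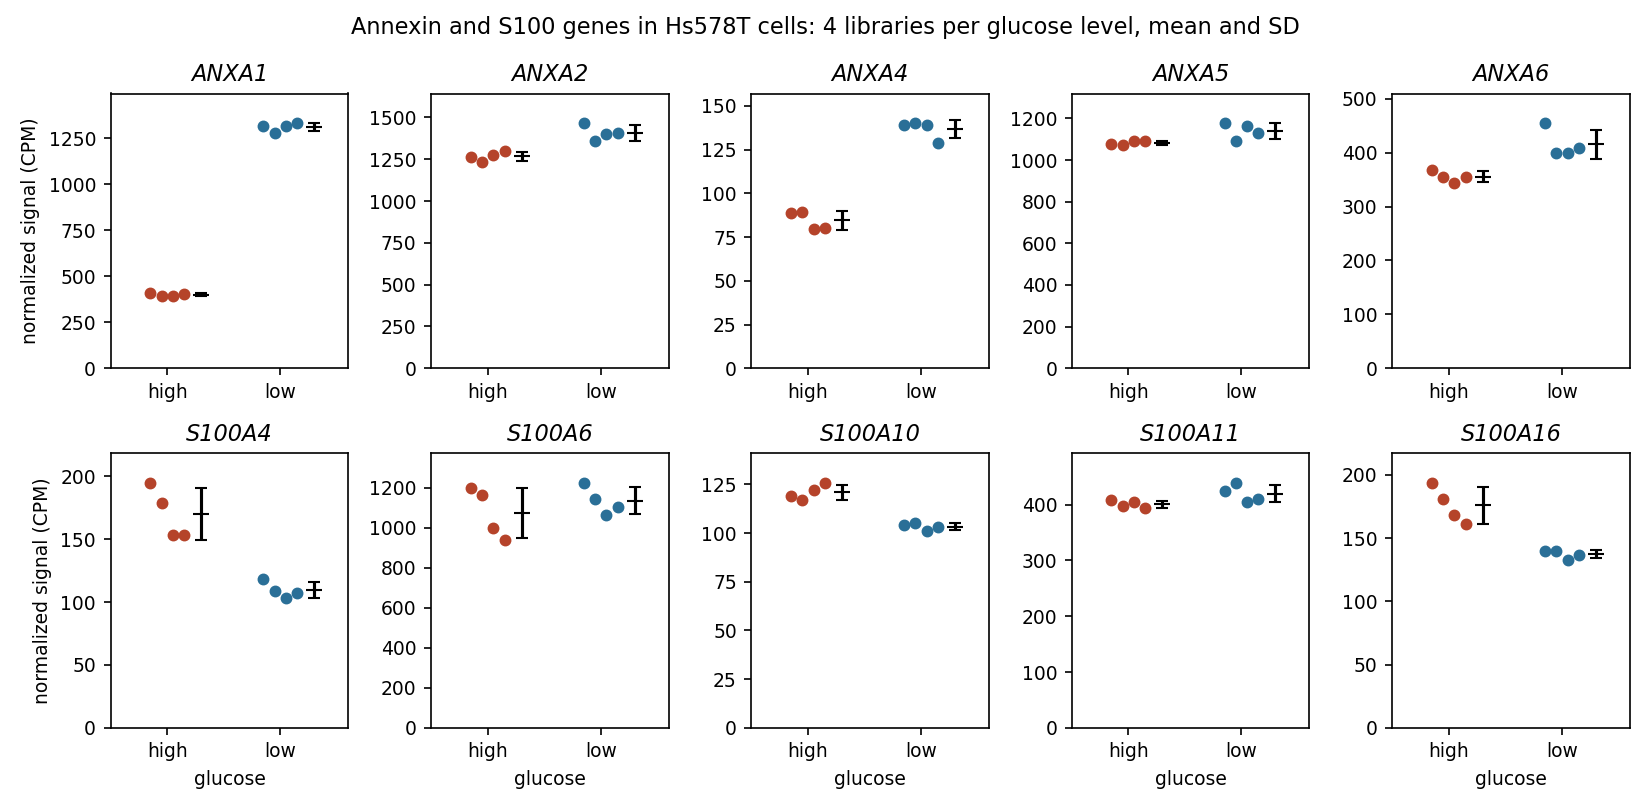
Normalized signal (CPM, axis from 0) of the 10 genes in each library, high glucose on the left and low glucose on the right of each panel. Black bars are the mean and SD, n = 4. ANXA1 lies between 393 and 409 CPM in high glucose and between 1278 and 1333 CPM in low glucose, whereas the groups overlap for ANXA5, S100A6 and S100A11.

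ANXA2, ANXA5 and ANXA6 differed little between the groups, and the direction of the difference rested on the scaling. ANXA2, on chromosome 15 from 60347151 to 60397986, encodes the membrane and actin binding partner of S100A10. It had 1261, 1235, 1273 and 1298 CPM in high glucose, against 1467, 1357, 1399.7 and 1405 CPM in low glucose. The groups did not overlap, and the difference passed as lower (log2 fold change -0.15 ± 0.034 SE, adjusted p = 8.71e-04), but it passed as higher with equal totals (0.09, adjusted p = 0.0161) and with quantile normalization (0.26, adjusted p = 1.91e-06). ANXA2 has processed pseudogenes, and ANXA2P2 was at 1.46 ± 0.208 CPM in high and 1.75 ± 0.242 CPM in low glucose (SD, n = 4 each). Reads that both could give cannot be told apart here. ANXA6, an annexin of the plasma membrane and endosomes on chromosome 5 from 151100706 to 151157779, had 368, 355, 343 and 354 CPM in high glucose, against 455, 399, 399 and 409 CPM in low glucose. Low-glucose replicate 1 stood above the other libraries. The difference passed as lower (log2 fold change -0.23 ± 0.043 SE, adjusted p = 2.41e-04) and was -0.24 to -0.18 when single libraries were left out, but it did not pass with equal totals (0.02, adjusted p = 0.677) or quantile normalization (-0.06, adjusted p = 0.180). ANXA5, the phosphatidylserine binding protein used as a probe of apoptotic cells, is on chromosome 4 from 121667946 to 121696980. It had 1076, 1074, 1093 and 1089 CPM in high glucose, against 1178, 1091, 1161 and 1129 CPM in low glucose. The groups overlapped, since low-glucose replicate 2 was below the highest high-glucose library, and the log2 fold change of -0.07 did not pass (adjusted p = 0.0586). Without low-glucose replicate 2 it passed as lower (-0.09, adjusted p = 0.0174), and with equal totals (0.17, adjusted p = 1.51e-04) or quantile normalization (0.26, adjusted p = 1.12e-05) it passed as higher.

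S100A4, S100A16 and S100A10 were higher in high glucose under each scaling. S100A4 (metastasin), which binds nonmuscle myosin and is linked to cell motility and metastasis, lies on chromosome 1 from 153543621 to 153545806. It had 195, 179, 153 and 153 CPM in high glucose, against 118, 109, 103 and 107 CPM in low glucose. All high-glucose libraries were above all low-glucose libraries, with replicates 1 and 2 above replicates 3 and 4. The log2 fold change was 0.62 ± 0.071 (SE, adjusted p = 9.67e-07). S100A4 and S100A5 share 65 bases in RefSeq, and S100A5 averaged 0.391 ± 0.183 CPM in high and 0.0860 ± 0.112 CPM in low glucose (SD, n = 4 each). S100A16, a widely expressed S100 protein encoded from 153606883 to 153613137 on chromosome 1, had 194, 181, 168 and 161 CPM in high glucose, against 139.9, 140.1, 133 and 137 CPM in low glucose. The groups did not overlap, and the spread was wider in high glucose. The log2 fold change was 0.35 ± 0.051 (SE, adjusted p = 1.71e-05), and 0.59 with equal totals. S100A10, the member of the family that has lost calcium binding and stays in its active form, lies on chromosome 1 from 151982915 to 151993859. It had 119, 117, 122 and 126 CPM in high glucose, against 104, 105, 101 and 103 CPM in low glucose. The rise was small, and it was larger than the spread in both groups (log2 fold change 0.22 ± 0.039 SE, adjusted p = 1.01e-04, and 0.47 with equal totals).

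S100A6 and S100A11 did not pass with the deposited scaling. S100A6 (calcyclin), a growth-associated S100 protein encoded on chromosome 1 from 153534599 to 153535991, had 1198, 1164, 999.8 and 937 CPM in high glucose, against 1226, 1144, 1066 and 1104 CPM in low glucose. High-glucose libraries lay both within and below the range of low glucose, and the log2 fold change was -0.08 (95% interval -0.23 to 0.06, adjusted p = 0.272). S100A11 (calgizzarin), the partner of annexin A1 on chromosome 1 from 152032506 to 152037004, had 408, 397, 404 and 394 CPM in high glucose, against 424, 439.7, 405 and 411 CPM in low glucose. The log2 fold change was -0.07 (95% interval -0.14 to 0.01, adjusted p = 0.0977). With equal totals both passed as higher, S100A6 at 0.16 (adjusted p = 0.0300) and S100A11 at 0.18 (adjusted p = 2.11e-04), and with quantile normalization they were higher at 0.26 (adjusted p = 0.00395) and 0.11 (adjusted p = 0.00730).

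Of the 10 genes, 3 were called higher, 4 were called lower and 3 did not pass. The 7 called are 70% of the genes, against 72.9% called among all 15570 genes tested (35.7% higher and 37.2% lower), so the share called was near that of the table as a whole. The groups did not overlap for 7 of the 10, against 66.7% of all genes. Their median log2 fold change was -0.08, against 0.00 for all genes. Equal totals moved the log2 fold changes of all genes up by a median of 0.23, and then 7 of the 10 genes passed as higher and 2 as lower, against 47.1% and 27.9% of all genes. The calls of 5 genes, ANXA1, ANXA4, S100A4, S100A10 and S100A16, kept their direction and passed with the deposited scaling, equal totals, quantile normalization and median-of-ratios factors, 4 scalings in all.

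**Figure D2:**
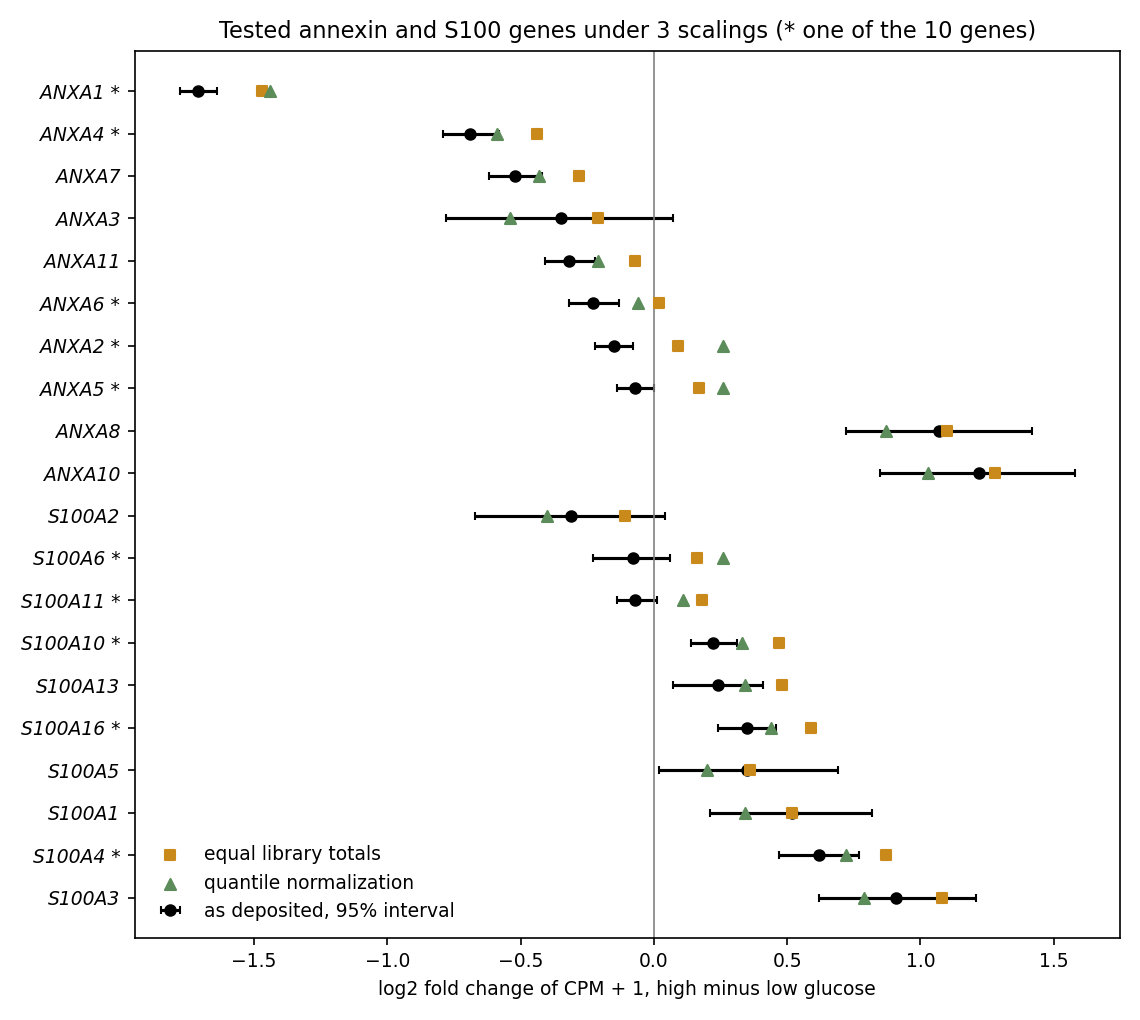
Log2 fold change of CPM + 1, high minus low glucose, of the tested annexin and S100 genes, with the deposited scaling (black, 95% interval), equal library totals (squares) and quantile normalization (triangles). ANXA1 lies at -1.71, -1.47 and -1.44 under the 3 scalings, and the symbols of ANXA2, ANXA5, ANXA6, S100A6 and S100A11 fall on both sides of 0.

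The balance of annexin to S100 transcripts was compared within each library, where the scaling of the library cancels. The ratio of ANXA2 to S100A10 was 10.6, 10.5, 10.5 and 10.3 in high glucose, against 14.1, 12.9, 13.8 and 13.7 in low glucose. Every high-glucose library was below every low-glucose library, a difference of -0.38 on the log2 scale (exact permutation test, 2-sided, p = 0.0286, adjusted over the 2 ratios p = 0.0286). The ratio of ANXA1 to S100A11 was 1.0, 0.993, 0.972 and 1.03 in high glucose, against 3.10, 2.91, 3.26 and 3.25 in low glucose. The difference was -1.65 on the log2 scale (exact permutation test, 2-sided, p = 0.0286, adjusted p = 0.0286). With 70 arrangements of 4 against 4 libraries, no smaller p can be reached. The groups also did not overlap for 66.7% of all genes, and ratios of other gene pairs were not compared. S100A11 alone changed by only -0.07, so its ratio mostly restates the fall of ANXA1. On the deposited scaling ANXA2 was lower and S100A10 higher without overlap. The full separation of their ratio, and with it the p value, thus followed from those levels. Both are ratios of CPM and carry the lengths of the transcripts, so only their change between the groups is read.

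**Figure D3:**
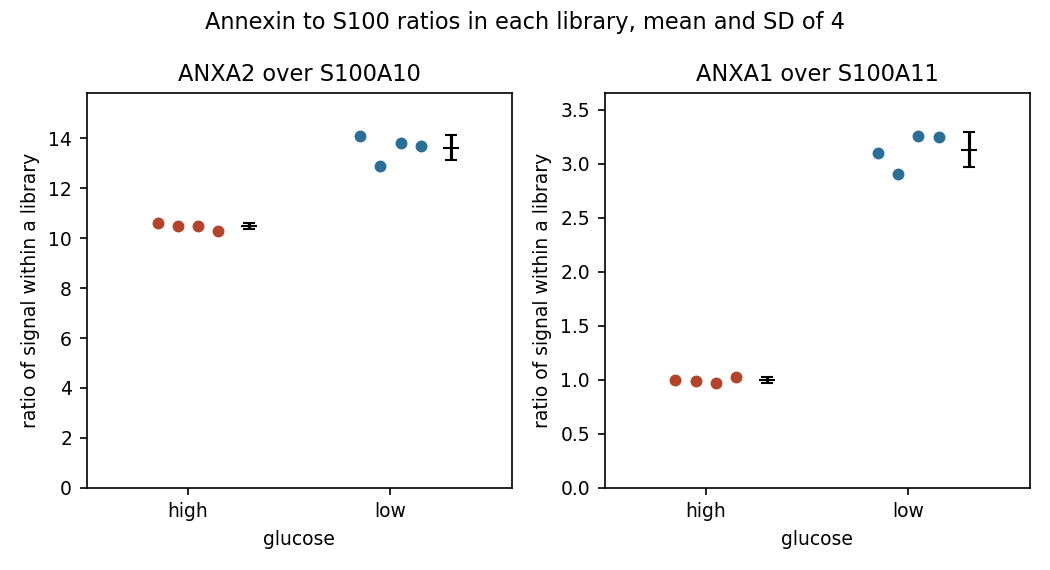
Ratio of signal within each library (axis from 0) for ANXA2 over S100A10 on the left and ANXA1 over S100A11 on the right, high glucose before low glucose in each panel. Black bars give mean and SD, n = 4. The ANXA1 ratio averages 0.998 in high glucose and 3.13 in low glucose, and the ANXA2 ratio 10.5 and 13.6.

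Per kilobase of the canonical GENCODE transcript, S100A6 had the highest level of the 10 genes, at 2477 ± 291 CPM per kilobase in high and 2615 ± 157 in low glucose (SD, n = 4 each), above 99.9% of the genes tested. In high glucose the order below it was ANXA2 (815), S100A11 (712), ANXA5 (661), S100A4 (331), ANXA1 (285), S100A10 (180.2), S100A16 (150.2), ANXA6 (123) and ANXA4 (31.9), mean CPM per kilobase in parentheses, with no overlap between neighbors in that order. In low glucose ANXA1 (936) came next after S100A6, and it overlapped with ANXA2 (906). S100A11 (746) and ANXA5 (696) followed and overlapped with each other, then S100A4 (214), S100A10 (154) and ANXA6 (144), of which S100A10 and ANXA6 overlapped, and S100A16 (117) and ANXA4 (51.6). ANXA1 thus stood second in low glucose and sixth in high glucose. Even ANXA4 was above 88.2% of the genes tested, and the lowest estimated count of any of the 10 genes in a library was 834, so counting error was small for all of them. A share of the column total is set by the equal-totals scaling. On it, the 5 annexins together took 0.311% ± 0.00452 of the signal in high and 0.363% ± 0.00761 in low glucose, and the 5 S100 genes 0.189% ± 0.0143 and 0.157% ± 0.00634 (SD, n = 4 each). Without ANXA1, the other 4 annexins took 0.272% ± 0.00409 in high and 0.255% ± 0.00697 in low glucose, so the lower share of the 5 rested on ANXA1. On the deposited scaling the 4 summed to 2753 to 2821 CPM in high and 2988 to 3238 CPM in low glucose. The 5 S100 genes summed to 1771 to 2115 CPM in high and 1809 to 2012 CPM in low glucose, with overlap, so their higher share depends on the scaling.

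All 5 S100 genes lie in the S100 cluster of chromosome 1, where 14 S100 genes of the table span 1651447 bases, and 10 of these were tested. Of the 10, 6 were called higher with the deposited scaling, against 35.7% of all genes tested. None was called lower with it, against 37.2% of all genes, or with equal totals, against 27.9%. With quantile normalization S100A2 passed as lower (-0.40, limma adjusted p = 0.0479). The cluster was not tested as a set. S100A6 (-0.08) and S100A5 (0.35, adjusted p = 0.0541), which follows it, did not pass, S100A4 (0.62) and its neighbor S100A3 (0.91), a protein of hair cuticle, rose, and S100A2 (-0.31, adjusted p = 0.10), an S100 protein of epithelia, did not pass. S100A16 (0.35), S100A13 (0.24, adjusted p = 0.0126), which takes part in the release of FGF1, and S100A1 (0.52), known from heart muscle, rose at the end of the cluster, log2 fold changes in parentheses. S100A13 had 84.8, 79.0, 70 and 68.0 CPM in high glucose, against 72.7, 64.1, 55.9 and 61.8 CPM in low glucose, so the groups overlapped. Its call was lost without low-glucose replicate 3 (0.18, limma adjusted p = 0.0512) and without the variance trend (limma adjusted p = 0.0528). With equal totals the log2 fold change of S100A13 was 0.48. S100A1 lies within the bounds of S100A13 and can share reads with it. CHTOP, with a mean of 87.3 CPM, also overlaps S100A13, by 296 bases. S100A1 and S100A5 passed the filter only through high glucose, at no more than 0.693 and 0.573 CPM. The filter itself thus disfavored a call of lower for them, and S100A1 is among the 6 called higher.

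**Figure D4:**
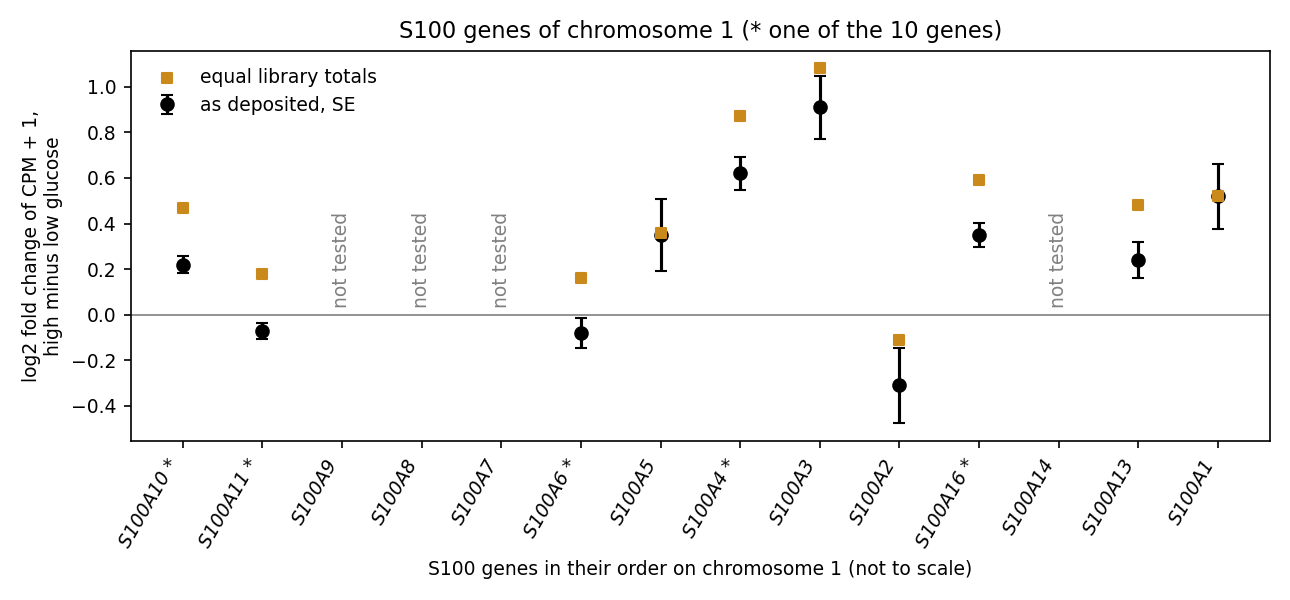
Log2 fold change of CPM + 1, high minus low glucose, of the S100 genes of chromosome 1 in their order on the chromosome (distances not to scale), with the deposited scaling (black, SE) and equal library totals (squares). With the deposited scaling S100A4 and S100A3 are at 0.62 and 0.91, S100A5 before them at 0.35 and S100A2 after them at -0.31, and neither S100A5 nor S100A2 passed.

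Among the 10 genes, libraries of high glucose differed most for S100A4, S100A6 and S100A16. In high glucose the coefficient of variation was 12.2% for S100A4, 11.7% for S100A6 and 8.26% for S100A16, against 2.96% for S100A10, 1.69% for S100A11 and 0.880% to 6.35% for the 5 annexins. High-glucose replicates 1 and 2 were above replicates 3 and 4 for 5 of the 10 genes (ANXA4, ANXA6, S100A4, S100A6 and S100A16), a pattern that 25.7% of all genes tested showed. ANXA2, ANXA5 and S100A10 showed the reverse, as did 23.0% of all genes. Deviations over all genes correlated at -0.13 for replicates 1 and 2 and -0.15 for 3 and 4, against -0.49 to -0.40 across these pairs. The fit did not model such pairs. In low glucose, replicate 1 was the highest and replicate 3 the lowest for S100A4, S100A6 and S100A13 alike. Leaving out single libraries moved the log2 fold change of S100A4 between 0.56 and 0.67, that of S100A16 between 0.30 and 0.39 and that of S100A6 between -0.14 and -0.02, and the calls of these 3 genes did not change.

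**Figure D5:**
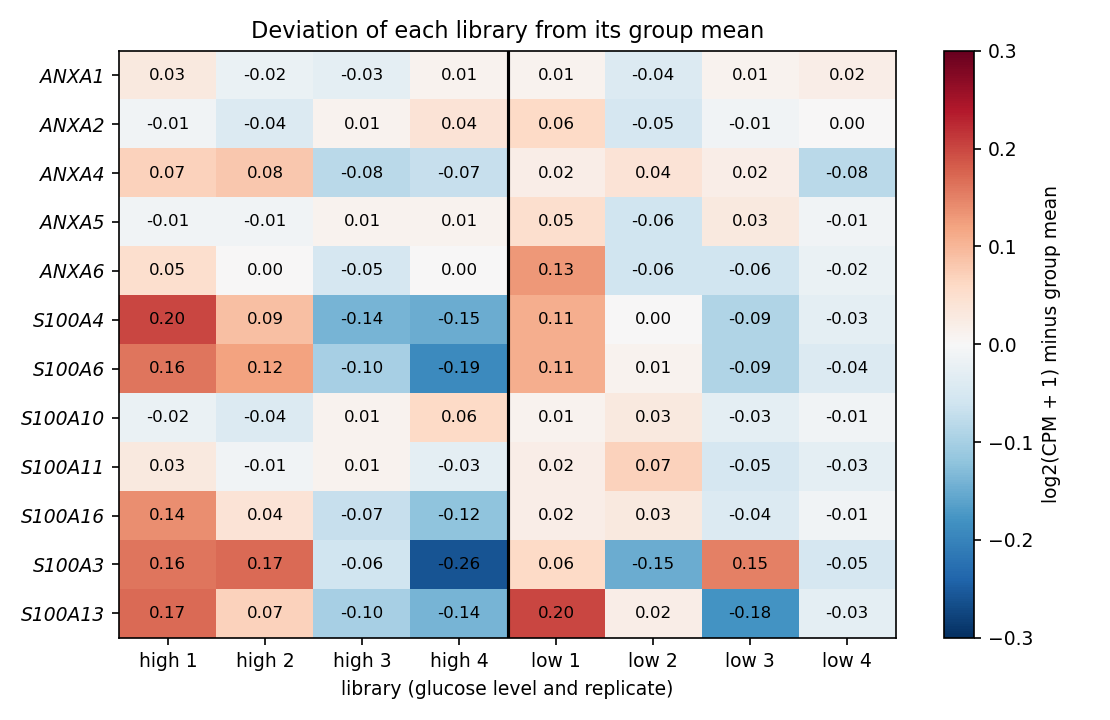
Deviation of each library from the mean of its group, as log2(CPM + 1), for the 10 genes and the neighbors S100A3 and S100A13, with high-glucose libraries left of the line and low-glucose libraries right of it. S100A4 is at 0.20 in high-glucose replicate 1 and at -0.15 in replicate 4, whereas ANXA1 stays between -0.04 and 0.03.

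A total of 17 other genes of the families were in the table, and 10 of them passed the filter on low values. Of these 10, 5 were called higher, 2 were called lower and 3 did not pass, and the median of their log2 fold changes was 0.30. The 70% called is near the 72.9% of all genes, of which 35.7% were higher and 37.2% lower. ANXA7 (synexin), which promotes membrane fusion, had 114, 112, 98.8 and 113 CPM in high glucose, against 155, 157, 158 and 159.9 CPM in low glucose, and fell (log2 fold change -0.52, adjusted p = 7.45e-08, and -0.28 with equal totals). ANXA11, which tethers RNA granules to lysosomes, had 122, 109.9, 115 and 109.6 CPM in high glucose, against 141, 141, 145 and 143 CPM in low glucose. It fell as well (-0.32, adjusted p = 6.82e-06), but with equal totals it did not pass (-0.07, adjusted p = 0.126). S100A3 rose at a low level, with 6.85, 6.91, 5.73 and 4.86 CPM in high glucose, against 2.88, 2.36, 3.14 and 2.59 CPM in low glucose (0.91, adjusted p = 2.48e-05). ANXA10, an annexin of gastric epithelium, was at 1.82 to 3.33 CPM in high glucose and 0.325 to 0.787 CPM in low glucose (adjusted p = 1.07e-05). ANXA8 was at 1.40 to 1.99 CPM in high and 0.118 to 0.650 CPM in low glucose (adjusted p = 2.79e-05), and its near-identical copy ANXA8L1 can share its reads. S100A1 was at 0.401 to 0.693 CPM in high glucose and at no more than 0.118 CPM in low glucose (adjusted p = 0.00434). ANXA10, ANXA8 and S100A1 were called higher at low levels, where 1 count is 0.0867 to 0.118 CPM, and the size of the change depends on the pseudocount. ANXA8, S100A1 and S100A5 reached 0.5 CPM in 2 libraries only in high glucose, so the filter itself favored a call of higher for them. All of them enter the median of 0.30, and ANXA8 and S100A1 are among the 5 called higher. Genes above 0 were also more numerous in high glucose, at 17648 to 17828 per library, against 16805 to 16935 in low glucose. Low-level rises were thus not particular to these families. ANXA3 was at 1.08 ± 0.396 CPM in high and 1.70 ± 0.701 CPM in low glucose (SD, n = 4 each), and like S100A2 and S100A5 it did not pass (adjusted p = 0.119, 0.10 for S100A2 and 0.0541 for S100A5). Of the 7 genes below the filter, the inflammatory S100A8 and S100A9 and S100P were at 0 in all 8 libraries, which allows up to 0.260 to 0.354 CPM (3 counts per library, counting error only). S100A7 was at 0 in high glucose and 0.111 to 0.217 CPM in low glucose, ANXA9 at 0.382 to 0.902 CPM in high and at most 0.221 CPM in low glucose, and S100A14 and ANXA8L1 at no more than 0.290 CPM.

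Genes that act with these proteins were read from lists chosen by function. Around the plasminogen system, 3 of 8 genes tested rose and 3 fell (median log2 fold change -0.03). The urokinase gene PLAU had 108, 103, 97.5 and 100.4 CPM in high glucose, against 38.5, 47.7, 46.9 and 51.1 CPM in low glucose (1.14, adjusted p = 9.36e-10). Its receptor PLAUR rose to 100.2 ± 7.66 CPM in high glucose, against 49.9 ± 0.915 CPM in low glucose, and the inhibitor SERPINB2 to 75.6 ± 4.17 CPM, against 27.0 ± 2.42 CPM (SD, n = 4 each). Among membrane repair genes, 6 of 19 rose and 10 fell, with a median of -0.23. AHNAK, the large scaffold that binds annexin A2 and S100A10, had 1577, 1515, 1547 and 1695 CPM in high glucose, against 555, 485, 522 and 547 CPM in low glucose (1.59, adjusted p = 1.54e-13). The caveola genes CAV1 (0.65) and CAVIN1 (0.94) rose, and CHMP4A (-1.23), of the membrane-cutting ESCRT machinery, fell.

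Among receptors, 4 of 6 genes rose and 1 fell, with a median of 0.42. TLR4, a receptor of the S100A8 and S100A9 proteins, rose to 94.9 ± 2.72 CPM in high glucose, against 42.6 ± 1.42 CPM in low glucose, SORT1 (1.10) and EGFR (0.21) rose, and the annexin A2 receptor gene ANXA2R fell to 0.625 ± 0.332 CPM, against 2.03 ± 0.365 CPM (SD, n = 4 each). Of 24 EF-hand and related calcium-binding genes 10 rose and 10 fell, with a median of -0.10, and the calmodulin genes CALM2 (0.96) and CALM3 (0.72) rose, as did CALU (0.92), a calcium-binding protein of the secretory pathway. Of 15 genes for binding targets 5 rose and 9 fell, with a median of -0.19. The nonmuscle myosin heavy chain gene MYH9, which encodes a target of S100A4, fell (-0.78, and -0.18 with quantile normalization), as did the light chain gene MYL9 (-0.74) and SUGT1 (-0.53), a partner of S100A6. With equal totals the plasminogen list had 5 higher and 3 lower (median 0.22), and membrane repair 9 and 8 (0.01). Receptors then had 4 and 1 (0.55), calcium binding 12 and 8 (0.13) and binding targets 5 and 6 (0.05). All genes tested had a median of 0.19 on that scaling, with 47.1% higher and 27.9% lower. The sign of the median thus depended on the scaling for every list but receptors. With the deposited scaling, the share called was 75%, 84.2%, 83.3%, 83.3% and 93.3% for the 5 lists in the order given, against 72.9% of all genes. None of the 20 genes selected from these lists changed direction or lost its call under the 17 alternatives. They were selected as the called genes with the smallest p in these same data, so this was largely fixed by the selection.

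The 3 genes whose pattern over the 8 libraries was closest to that of ANXA1 were HYOU1, PRTG and GCLC, among 11282 genes with at least 5 CPM in 1 group. Closeness was the root mean square difference in log2(CPM + 1) after the low-glucose mean of each gene was subtracted, and it was 0.0358, 0.0386 and 0.0397. HYOU1, a chaperone of the endoplasmic reticulum, averaged 388 ± 11.8 CPM in high and 1286 ± 28.1 CPM in low glucose, PRTG (protogenin), a receptor of the immunoglobulin superfamily, 8.14 ± 0.226 and 28.5 ± 1.11 CPM, and GCLC, which encodes the catalytic subunit of the enzyme that starts glutathione synthesis, 70.6 ± 1.76 and 232 ± 11.8 CPM (SD, n = 4 each). The pattern is mostly the difference between the groups, so genes with a like fall and small spread come closest.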

How the data were processed

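RNA was isolated from Hs578T cells, and 4 libraries per glucose level were sequenced. The authors deposited 1 table of normalized signal for 21077 genes, treated here as CPM with TMM factors because the submitters' processing notes name edgeR (and hg38) and the methods of the study give that unit for its RNA-Seq. Those methods do not list cultured Hs578T cells, and the aligner and counter of these libraries were not given in the sources used here. In units of the estimated value of 1 read, 71.2% to 73.8% of values below 50 reads were whole within 0.005 read, so no count model was used. No 2 libraries were alike within sampling noise (mean chi-square per gene 1.6 to 5.74 within groups, against 1 for sampling alone). 

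Genes with at least 0.5 CPM in 2 libraries (15570) were put on the log2(CPM + 1) scale and fitted with limma 3.58.1 under R 4.3.3, using a variance trend, high minus low glucose, and called at a Benjamini-Hochberg FDR of 0.05 over all genes. The filter follows the methods of the study. The fit was tested on simulated data. The ratios within a library were compared by exact permutation tests. Alternatives covered the pseudocount, filter, scaling, variance prior, replicate number as a block and leaving out each library.

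The 10 genes and all lists were chosen with earlier results of these data known, and no list was tested as a set. Named genes were the 10 genes, the other family genes that passed the filter, up to 4 called genes per list by smallest p, and the 3 genes with the pattern closest to that of the gene with the largest change. Some genes that this rule selects are not reported here. Positions and promoters are from RefSeq (GRCh38.p14, the assembly of hg38), matched by symbol for all 10 genes, and transcript lengths from GENCODE, for 98.7% of the genes tested.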

Additional observations from a re-analysis of the deposited data

Results flagged for a closer look

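Among the 88 groups of 4 libraries behind the named genes and ratios, 6 held a library far from the other 3 by Dixon's criterion, and chance alone gives about 1 in 20. ANXA4 was at 129 CPM in low-glucose replicate 4, against 139 to 140.2 CPM in the other low-glucose libraries. ANXA7 was at 98.8 CPM in high-glucose replicate 3, against 112 to 114 CPM. S100A1 was at 0 in low-glucose replicate 3, against 0.111 to 0.118 CPM, a difference of 1 count. TLR4 was at 90.9 CPM in high-glucose replicate 2, against 95.9 to 96.7 CPM. SORT1 was at 99.8 CPM in high-glucose replicate 3, against 107 to 108 CPM, and at 40.9 CPM in low-glucose replicate 2, against 51.4 to 52.1 CPM.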

How the results depend on the processing

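Over the 8 fits that left out a library, the log2 fold changes of the 10 genes kept direction and call in 79 of 80 values, the exception being ANXA5 without low-glucose replicate 2. The scaling mattered more. With equal totals 7 of the 10 genes were called higher and 2 lower, and 1 other family gene was called lower. With quantile normalization 7 were called higher and 2 lower, and 4 other family genes lower. Genes that changed direction with equal totals were ANXA2 (0.09), ANXA5 (0.17), ANXA6 (0.02), S100A6 (0.16) and S100A11 (0.18), and with quantile normalization ANXA2 (0.26), ANXA5 (0.26), S100A6 (0.26) and S100A11 (0.11). These scalings differ by construction in the level that counts as unchanged. Leaving out single libraries gave 2 to 4 other family genes called lower, with 4 without high-glucose replicate 4, where ANXA3 (-0.47) and S100A2 (-0.41) passed. The deviations of same-numbered libraries correlated only weakly over all genes tested, at -0.03, 0.11, 0.01 and 0.08. For S100A4, S100A6 and S100A13, though, replicate 1 was above and replicate 3 below the group mean at both glucose levels. Whether same-numbered libraries belong together cannot be told from these values. With the replicate block 5602 genes were called higher and 5892 lower, and ANXA5 (-0.07, adjusted p = 0.0256) and S100A6 (-0.08, adjusted p = 0.0466) passed as lower, so that 6 of the 10 genes were lower. High-glucose replicates 2 and 4 correlated best with their own numbers, and replicates 1 and 3 did not. Paired by number, the differences of the ratios of ANXA2 to S100A10 (-0.38) and ANXA1 to S100A11 (-1.65) did not pass (exact sign-flip p = 0.125), the smallest p that 4 pairs allow. Leaving out single libraries gave -0.40 to -0.36 and -1.68 to -1.63. Depth limits the genes near single counts.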

Other observations

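S100A4, S100A13 and S100A6 varied together between libraries, and their ratios varied less than their levels. These ratios were chosen after the values were seen and were not tested. The ratio of S100A4 to S100A6 was 0.163, 0.154, 0.153 and 0.163 in high glucose, against 0.0966, 0.0957, 0.0965 and 0.0973 in low glucose. Its coefficient of variation was 3.38% in high and 0.695% in low glucose, whereas that of S100A4 alone was 12.2% and 5.94%. The ratio of S100A13 to S100A6 was 0.0708, 0.0678, 0.0700 and 0.0725 in high glucose, against 0.0593, 0.0560, 0.0524 and 0.0560 in low glucose, again without overlap, although the levels of S100A13 overlapped between the groups. For S100A16 the coefficient of variation of its ratio to S100A6 was 4.49% in high glucose, below 8.26% for its level. In low glucose it was 4.11%, above 2.29% for the level. The ratio of S100A3 to S100A6 likewise had 5.67%, against 16.1% for the level, in high glucose. In low glucose that ratio had 15.3%, against 12.4% for the level.

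S100PBP, which encodes a binding protein of S100P, was at 31.3, 31.0, 34.0 and 34.0 CPM in high glucose, against 49.1, 45.6, 49.0 and 50.9 CPM in low glucose (log2 fold change -0.57, limma adjusted p = 3.72e-07), while S100P itself was at 0 in all 8 libraries.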
